A study of Mus musculus with 9 samples.

Results

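Excitatory signalling between retinal neurons runs on glutamate, and 34 genes for its receptors and for the scaffold proteins that hold those receptors at the synapse were followed in the neural retina of newborn mice with and without melanopsin, the photopigment encoded by Opn4. The genes were taken by name from the 53280 genes of the count table: 4 AMPA receptor subunits, 4 kainate receptor subunits, 7 NMDA receptor subunits, 1 delta receptor, 6 metabotropic receptors, 4 Dlg, 3 Shank and 3 Homer scaffolds, and 2 auxiliary proteins of AMPA receptors. All 34 passed the filter on low counts and were among the 21150 genes tested, with 103 to 24166 counts per pool.

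Opn4KO pups, which lacked melanopsin, were compared with Opn4WT littermates from crosses of heterozygous parents. Both groups were kept under standard lighting of about 300 lux and were killed at postnatal day 4 between 6 and 7 hours after lights on. Retinas were pooled within a genotype, 4 retinas from 2 animals to a pool, giving 5 Opn4KO and 4 Opn4WT pools of poly-A RNA. The deletion is carried by every cell of the animal, and the labels used here give neither the sex of the pups nor which litter went into which pool. Whole retina was sequenced, so fewer cells of a type and less RNA per cell cannot be told apart in any value that follows.

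Total counts ran from 65530419 to 86132643 in Opn4KO pools and from 73426036 to 85907364 in Opn4WT pools. Opn4 itself, on chromosome 14 at 34590618 to 34600142 of GRCm38, minus strand, stood at 1.07, 1.82, 1.15, 1.42 and 1.35 CPM in Opn4KO pools 1 to 5, against 11.8, 11.4, 12.03 and 11.6 CPM in Opn4WT pools 1 to 4. No pool overlapped between genotypes, and the Opn4KO mean was 11.6% of the Opn4WT mean (log2 fold change -3.10, SE 0.14, edgeR quasi-likelihood test with Benjamini-Hochberg adjustment, adjusted p = 1.28e-07). The summed level of 7 retinal identity genes was 2931 to 3097 CPM in Opn4KO pools and 2902 to 3006 CPM in Opn4WT pools, while 4 forebrain genes summed to 9.36 to 10.6 CPM and 8.77 to 10.7 CPM. Markers of other cell populations differed between the genotypes. Of 9 progenitor genes 7 were called lower in Opn4KO pools (adjusted p under 0.05 in the same test), as were all 5 red blood cell genes. Of 8 rod genes 6 were called higher, of 12 bipolar cell genes 6, and of 5 horizontal cell genes 2. Among the 6 bipolar cell genes is Grm6, which passed the filter on low counts through the Opn4KO pools alone, so its call rests on that group. Over all genes tested 1.34% were called higher and 2.25% lower.

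Glutamate opens AMPA and kainate receptors, which are channels built from 4 subunits and carry fast excitation, and it opens NMDA receptors, which also need glycine or D-serine and a depolarised membrane. Metabotropic receptors are not channels but act through G proteins, on cyclic AMP or on calcium stores. In the retina photoreceptors and bipolar cells release the glutamate, horizontal, amacrine and ganglion cells and OFF bipolar cells receive it through channel receptors, and ON bipolar cells receive it through the metabotropic receptor mGluR6, whose gene Grm6 is outside the 34. In the first postnatal week of the mouse these synapses are still being built, and rods and bipolar cells are still being born.

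The AMPA subunits share a codon of the pore loop, the Q/R site, which is known from mouse and rat to be changed by RNA editing in Gria2 and which sets whether the channel passes calcium. The level of Gria2 is therefore read relative to the other subunits, and the stretch of 30 bases around the site is shown for the 4 genes, read 5′ to 3′ on the coding strand from the GENCODE M21 transcripts of GRCm38, with the Q/R codon in capitals.

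Gria1, chr11:57243082-57243111, plus strand: ggggccttcatgCAGcaaggatgtgacatt

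Gria2, chr3:80706896-80706925, minus strand: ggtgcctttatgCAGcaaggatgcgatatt

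Gria3, chrX:41610253-41610282, plus strand: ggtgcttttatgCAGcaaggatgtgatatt

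Gria4, chr9:4464122-4464151, minus strand: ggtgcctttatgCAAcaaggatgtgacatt

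The genomic codon is CAG in Gria1, Gria2 and Gria3 and CAA in Gria4. Any pair of the 4 stretches differs at 2 to 4 of the 30 bases. Counts and transcript abundances per gene do not show which base the RNA carried at this codon, so editing was not measured.

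Levels of different genes were compared in TPM, a transcript abundance scaled to library size and to length, summed over the rows of a gene. The most abundant of the 34 were 2 scaffolds. Dlg4 encodes PSD-95, the scaffold that anchors AMPA and NMDA receptors, and stood at 218, 203, 187, 184 and 176 TPM in Opn4KO pools 1 to 5, against 180.1, 177, 183 and 179 TPM in Opn4WT pools 1 to 4. The Opn4WT pools lay inside the range of the Opn4KO pools, of which pools 1 and 2 were the highest. Dlg2, which encodes the related PSD-93, followed at 136 TPM in Opn4KO and 125 TPM in Opn4WT pools. The highest channel subunits were Grik5 at 74.5 and 78.5 TPM, Gria4 at 49.6 and 46.1 TPM, and Gria2 at 45.7 and 43.4 TPM in Opn4KO and Opn4WT pools. The lowest were the NMDA subunits Grin2c, at 0.802 and 0.624 TPM, Grin2a, at 0.965 and 0.730 TPM, and Grin3b, at 1.12 and 0.982 TPM. The order of the mean levels within each family was the same in both genotypes.

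**Figure D1:**
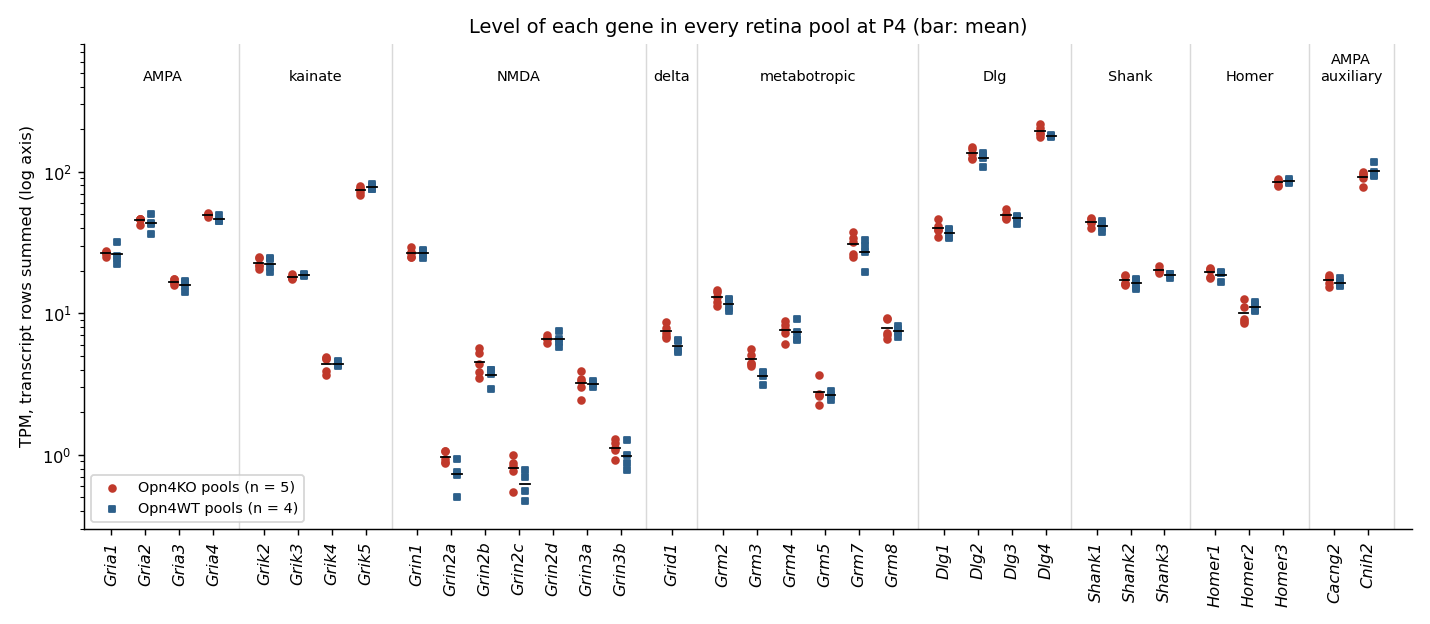
TPM of the 34 genes in every pool on a log axis, grouped by family, with Opn4KO pools (red circles, n = 5) at the left of Opn4WT pools (blue squares, n = 4) and a bar at each mean. Dlg4 and Dlg2 stand highest and Grin2a and Grin2c lowest in both genotypes.

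Between genotypes most of the genes differed little. Of the 34, 1 was called higher in Opn4KO pools (edgeR quasi-likelihood test, Benjamini-Hochberg adjusted p under 0.05 over all genes tested), where 1.34% of all genes were called higher. None was called lower, where 2.25% of all genes were. With an unadjusted p under 0.05 there were 5 members, all higher in Opn4KO, where 8.6% of all genes were higher and 7.91% lower at that level. The log2 fold changes of the 34 ran from -0.14 to 0.40, with a median of 0.07, beside a median of 0.00 (0.00117 unrounded) over all genes. They were positive for 29 and negative for 5, among them Cnih2 at -0.14 and Homer2 at -0.07, while 50.4% of all genes were positive. The 95% interval stayed within a 1.5-fold change either way for 29 genes. It reached past 1.5-fold for Grin2a, Grin2c, Grin3b, Grm3 and Grm5. DESeq2 called 3 members higher, Grid1, Grm3 and Grm5, where it called 3.26% of all genes higher, 3.79% lower and 7.05% in either direction. In gene-summed TPM 32 members were tested and none was called (limma), where 0.621% of genes were called higher and 2.16% in either direction.

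Opn4WT pool 3 was the lowest of the 4 Opn4WT pools for 22 of the 34 genes, and without it the median log2 fold change was 0.05. Progenitor markers summed to 852 to 1005 CPM in Opn4KO pools and 1340 to 1482 CPM in Opn4WT pools. Rod markers summed to 2782 to 3903 CPM and 2415 to 2659 CPM, bipolar markers to 550 to 604 CPM and 491 to 521 CPM, in Opn4KO and in Opn4WT pools. Amacrine markers summed to 1075 to 1176 CPM in Opn4KO and 1111 to 1198 CPM in Opn4WT pools, with 2 of 8 called lower. Ganglion cell markers summed to 1267 to 1455 CPM in Opn4KO and 1307 to 1424 CPM in Opn4WT pools. Of these 11 markers 2 were called higher, Nefh and Slc17a6, and the median log2 fold change of the 11 was -0.09. Horizontal cell markers summed to 204.9 to 225 CPM in Opn4KO pools and 150.2 to 192 CPM in Opn4WT pools, with Opn4WT pool 3 the lowest. Red blood cell markers summed to 73.7 to 99.3 CPM in Opn4KO pools, against 161, 110.0, 335 and 205 CPM in Opn4WT pools 1 to 4, with pool 3 the highest. The part of these populations in the values of the 34 genes was not tested.

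**Figure D2:**
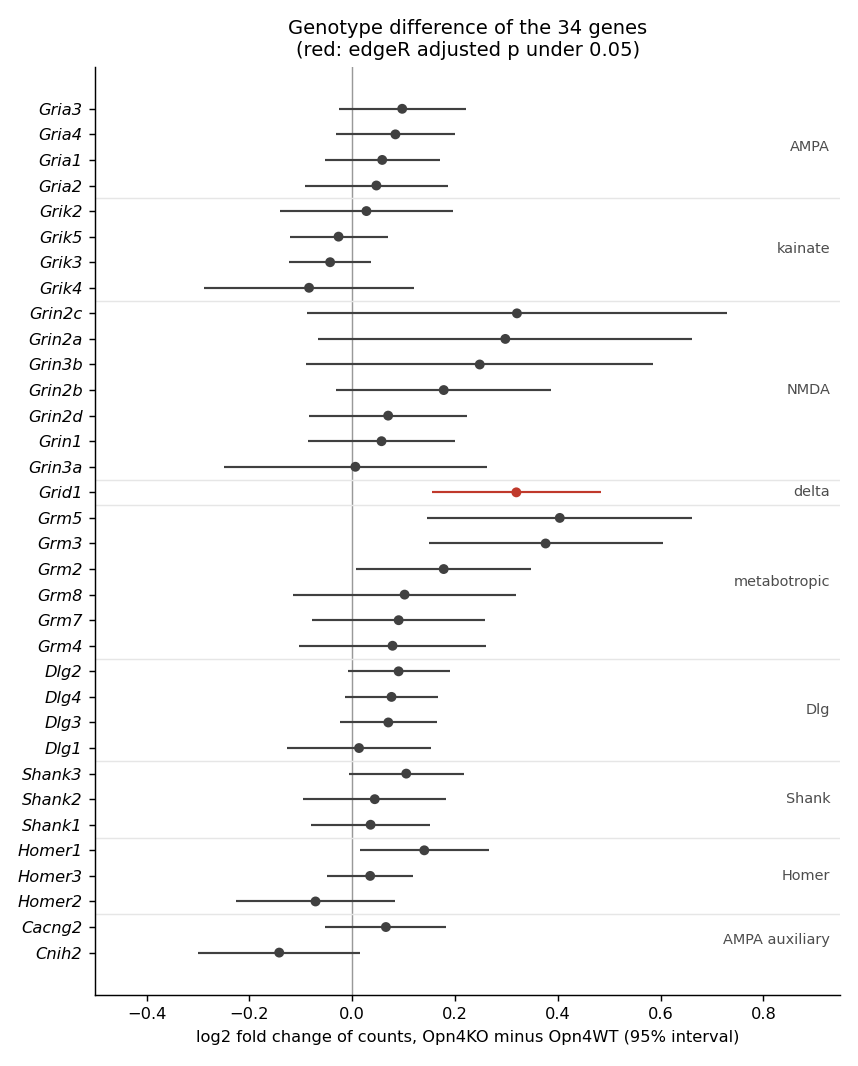
Log2 fold change of each of the 34 genes, Opn4KO minus Opn4WT, with its 95% interval from the edgeR quasi-likelihood fit, ordered by family. Values run from -0.14 for Cnih2 to 0.40 for Grm5, and Grid1 is the gene with an adjusted p under 0.05.

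Grid1 was the gene that passed the test. It encodes the delta receptor GluD1, a relative of the glutamate channels known in mouse brain as a postsynaptic organiser that binds cerebellins. Grid1 stood at 20.1, 20.1, 21.2, 19.6 and 22.9 CPM in Opn4KO pools 1 to 5, against 18.05, 14.6, 16.4 and 17.5 CPM in Opn4WT pools 1 to 4. Every Opn4KO pool lay above every Opn4WT pool, a separation that 3.92% of all genes showed in that direction and 4.37% in the other. The means were 20.8 ± 1.3 CPM in Opn4KO pools and 16.6 ± 1.5 CPM in Opn4WT pools (SD, n = 5 and n = 4), a ratio of 1.248. The log2 fold change was 0.32 (SE 0.08, 95% interval 0.16 to 0.48, edgeR quasi-likelihood test, Benjamini-Hochberg adjusted p = 0.0351). In transcripts Grid1 stood at 7.29, 6.94, 7.86, 8.75 and 6.68 TPM in Opn4KO pools 1 to 5, against 6.44, 5.29, 6.40 and 5.53 TPM in Opn4WT pools 1 to 4, and the difference had the same size on the log2(TPM + 0.5) scale, 0.32, with a limma adjusted p of 0.155. The authors' deposited table gave Grid1 a log2 change of 0.30 with a q-value of 0.485.

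The call on Grid1 was close to the threshold. It remained in 2 of the 9 fits that left out 1 pool, those without Opn4KO pool 4 and without Opn4WT pool 1, and was lost without any of the other 7, with adjusted p from 0.0439 to 0.0982 over the 9. The log2 fold change ran from 0.26 to 0.36 over the same fits. DESeq2 gave an adjusted p of 0.00189.

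**Figure D3:**
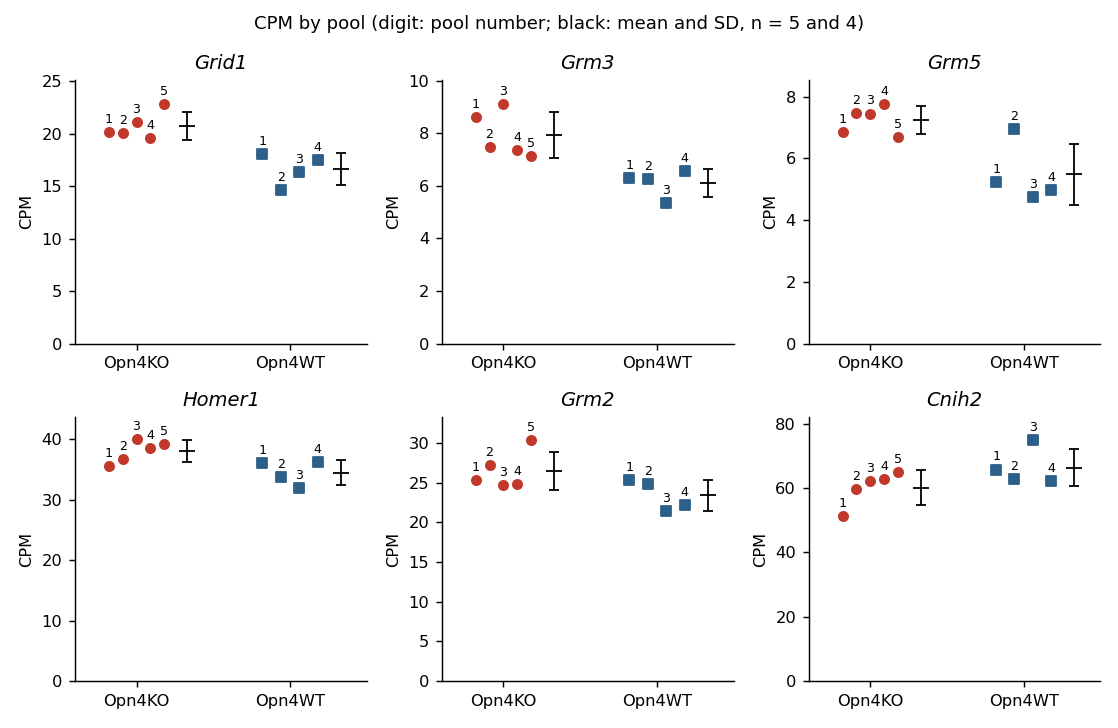
CPM in each pool for the 5 genes with the smallest p-values among the 34 and for Cnih2, the most negative, Opn4KO pools at the left of Opn4WT pools in each panel, with the group mean and 1 SD beside the points. Grid1 and Grm3 do not overlap between genotypes, whereas Grm5, Homer1, Grm2 and Cnih2 do.

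Grid1 also lies beside the altered gene. It occupies chromosome 14 from 34820108 to 35583379 on the plus strand of GRCm38, and it was the 1 gene of the 34 on chromosome 14. Its start lies 220.0 kb from position 34600142, the 5′ end of Opn4, which is on the minus strand. The 2 tested genes wholly between them, Wapl and A930038B10Rik, were not called. Within 0.5 Mb of Opn4, Grid1 was the 1 gene called of 11 tested, leaving Opn4 out. Within 1 Mb 2 of 17 genes were called (11.8%), and within 5 Mb 9 of 80 (11.25%), 5 of them higher and 4 lower in Opn4KO pools, where 3.59% of all genes were called. Each Opn4KO pool carries the altered Opn4 allele together with the sequence linked to it, so an effect of lost melanopsin on Grid1 and an effect of the linked sequence cannot be told apart here.

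**Figure D4:**
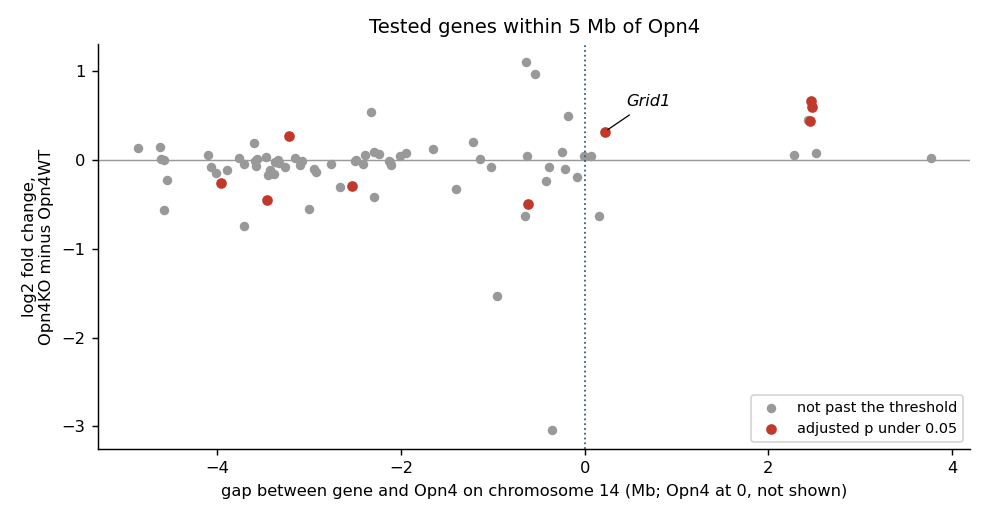
Log2 fold change of tested genes within 5 Mb of Opn4 against distance from Opn4 in Mb, Opn4 itself left out, with called genes marked and Grid1 named. Called genes lie on both sides of 0, 5 higher and 4 lower of 80, and Grid1 is the called gene nearest to Opn4.

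All 6 metabotropic receptor genes had positive log2 fold changes, from 0.08 to 0.40, and none passed the edgeR test. Grm3 encodes mGluR3, a receptor that lowers cyclic AMP, and lies on chromosome 5 at 9485541 to 9725170, minus strand. Grm3 stood at 8.61, 7.46, 9.10, 7.38 and 7.12 CPM in Opn4KO pools 1 to 5, against 6.29, 6.27, 5.34 and 6.54 CPM in Opn4WT pools 1 to 4. The groups did not overlap, with a log2 fold change of 0.38 (SE 0.11, 95% interval 0.15 to 0.60, edgeR adjusted p = 0.0736). None of the 9 fits that left out 1 pool called Grm3 (edgeR adjusted p from 0.0580 to 0.172). In gene-summed TPM the log2 difference was 0.36, with a limma adjusted p of 0.150. DESeq2 gave Grm3 an adjusted p of 0.0117. In the authors' deposited table Grm3 had a log2 change of 0.42 and a q-value of 0.0169, the 1 member under 0.05 there, where 0.648% of 17433 genes were higher and 0.815% lower under the same threshold.

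Grm5 encodes mGluR5, which acts through Gq on calcium stores, and lies on chromosome 7 at 87584168 to 88134907, plus strand. Grm5 stood at 6.86, 7.49, 7.46, 7.75 and 6.68 CPM in Opn4KO pools 1 to 5, against 5.22, 6.95, 4.76 and 4.99 CPM in Opn4WT pools 1 to 4. Opn4WT pool 2 lay inside the Opn4KO range and the other Opn4WT pools below it, with a log2 fold change of 0.40 (SE 0.12, 95% interval 0.15 to 0.66, edgeR adjusted p = 0.0905). Grm5 was called in 1 of the 9 fits that left out 1 pool, that without Opn4WT pool 2. The edgeR adjusted p ran from 0.0174 to 0.219 over the 9. The difference was not seen in transcript abundance, where Grm5 stood at 3.69, 2.59, 2.67, 2.25 and 2.67 TPM in Opn4KO pools 1 to 5, against 2.44, 2.82, 2.63 and 2.62 TPM in Opn4WT pools 1 to 4. The log2 difference there was 0.05 (limma adjusted p = 0.907), and the authors' deposited table gave 0.05 with a q-value of 0.953.

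Grm2 encodes mGluR2, the close relative of mGluR3, and stood at 25.4, 27.2, 24.7, 24.9 and 30.4 CPM in Opn4KO pools 1 to 5, against 25.4, 24.9, 21.4 and 22.1 CPM in Opn4WT pools 1 to 4. The groups overlapped (log2 fold change 0.18, SE 0.08, edgeR adjusted p = 0.278), and 9.60% of its exon bases are shared with the opposite-strand gene Gm28111. Grm7 encodes mGluR7, the presynaptic receptor of low glutamate affinity, and was the most abundant of the family at 37.3, 34.1, 31.7, 26.3 and 24.9 TPM in Opn4KO pools 1 to 5, against 27.0, 32.8, 19.7 and 29.7 TPM in Opn4WT pools 1 to 4. Its groups overlapped too, with a log2 fold change of 0.09 (95% interval -0.08 to 0.26). Grm4 and Grm8, which encode other receptors that lower cyclic AMP, averaged 7.66 and 7.86 TPM in Opn4KO pools, against 7.40 and 7.52 TPM in Opn4WT pools, and had log2 fold changes of 0.08 and 0.10.

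None of the 4 AMPA subunit genes, which carry the fast synaptic current, was called. Gria4 encodes GluA4 and was the most abundant, at 49.2, 50.2, 49.5, 51.3 and 47.9 TPM in Opn4KO pools 1 to 5, against 49.7, 45.3, 44.8 and 44.8 TPM in Opn4WT pools 1 to 4. Opn4WT pool 1 was inside the range of the Opn4KO pools and the other Opn4WT pools were below it, and the log2 fold change in counts was 0.08 (95% interval -0.03 to 0.20). Gria1, Gria2 and Gria3 had log2 fold changes of 0.06, 0.05 and 0.10, and the lowest edgeR adjusted p of the 4 was 0.439. In mean TPM the order was Gria4, Gria2, Gria1 and Gria3. Gria4 was above Gria2 in every pool except Opn4WT pool 4, and Gria3 was the lowest in every pool.

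Gria2, whose edited subunit makes the channel tight to calcium, showed no detectable difference in its share of the AMPA transcripts. That share was 33.6, 31.1, 33.1, 33.6 and 33.5% in Opn4KO pools 1 to 5, against 30.5, 33.6, 31.0 and 36.8% in Opn4WT pools 1 to 4. The Opn4KO values fell inside the Opn4WT range, and the mean was 32.95 ± 1.07% in Opn4KO and 32.96 ± 2.90% in Opn4WT pools (SD, n = 5 and n = 4, two-sided exact permutation test, p = 1, where 0.00794 is the smallest p that 126 splits allow). Gria4 held 35.8% and 35.2%, Gria1 19.2% and 19.8%, and Gria3 12.08% and 12.03% in Opn4KO and Opn4WT pools.

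Of the 4 kainate subunit genes 3 had negative log2 fold changes, and none of the 4 was called (lowest edgeR adjusted p = 0.632). Grik5 encodes GluK5, which forms channels only with other kainate subunits, and was the most abundant at 72.5, 78.8, 68.7, 77.2 and 75.0 TPM in Opn4KO pools 1 to 5, against 76.0, 76.2, 82.3 and 79.6 TPM in Opn4WT pools 1 to 4. Opn4KO pools 2 and 4 lay inside the Opn4WT range and the others below it (log2 fold change in counts -0.03, 95% interval -0.12 to 0.07). Grik2, which encodes GluK2, was the 1 kainate gene above 0, at 0.03, and Grik3 and Grik4 had -0.04 and -0.08. Grik5 made up 62.2% of the summed TPM of the 4 genes in Opn4KO pools and 63.3% in Opn4WT pools.

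All 7 NMDA subunit genes had positive log2 fold changes, from 0.01 to 0.32, and none was called (lowest edgeR adjusted p = 0.396). Grin1 encodes the obligatory subunit GluN1 and stood at 25.2, 26.8, 25.1, 27.2 and 29.5 TPM in Opn4KO pools 1 to 5, against 27.8, 25.8, 28.1 and 24.7 TPM in Opn4WT pools 1 to 4, the genotypes overlapping, with a log2 fold change of 0.06 in counts (95% interval -0.09 to 0.20). Among the glutamate-binding Grin2 subunits, Grin2d was the most abundant, at 6.63 TPM in Opn4KO and 6.53 TPM in Opn4WT pools, and Grin2b followed at 4.52 and 3.64 TPM. Grin2b and Grin2d are the subunits known to dominate in the newborn brain, while Grin2a and Grin2c come later. Grin2a and Grin2c were low in both genotypes, with wide intervals of -0.07 to 0.66 and -0.09 to 0.73 around log2 fold changes of 0.30 and 0.32. A near copy of Grin2a, Gm7328, shares 2225 aligned bases at 99.9% identity, so the split of reads between them is uncertain.

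Among the shares of the Grin2 subunits that of Grin2b was tested, and no difference was detected. Grin2b held 28.3, 31.4, 34.1, 40.6 and 39.6% of Grin2 transcripts in Opn4KO pools 1 to 5, against 34.6, 34.6, 25.3 and 32.2% in Opn4WT pools 1 to 4. The ranges overlapped, with means of 34.8 ± 5.27% in Opn4KO and 31.7 ± 4.42% in Opn4WT pools (SD, two-sided exact permutation test, p = 0.389, adjusted p = 1 over the 3 shares tested). The difference of 3.13 percentage points was 0.987 without Opn4WT pool 3. Grin2d held 51.4% and 56.6% in Opn4KO and Opn4WT pools, a difference that was not tested. Grin3a and Grin3b, which encode the glycine-binding GluN3 subunits, had log2 fold changes of 0.01 and 0.25. Exon bases are shared with a gene on the opposite strand for 32.1% of Grin3b (Tmem259), 13.5% of Grin1 (Grin1os) and 9.66% of Grin2d (Gm45441), and reads from such pairs cannot be told apart because the strand setting used for counting is not known here.

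The scaffolds of the postsynaptic density, which link receptors to each other and to the actin skeleton, included no called gene. The 4 Dlg genes had log2 fold changes from 0.01 to 0.09, all positive, with a lowest edgeR adjusted p of 0.356. The log2 fold change of Dlg4 was 0.08 (95% interval -0.01 to 0.17). It held 49.9, 48.0, 43.7, 46.6 and 42.9% of Dlg transcripts in Opn4KO pools 1 to 5, against 45.3, 45.3, 49.8 and 45.2% in Opn4WT pools 1 to 4. The pools overlapped, and the means of 46.2 ± 2.92% in Opn4KO and 46.4 ± 2.26% in Opn4WT pools gave p = 0.929 in the two-sided exact permutation test (adjusted p = 1). Dlg2 held 32.4% and 32.1% in Opn4KO and Opn4WT pools. Dlg1 and Dlg3, which encode SAP97 and SAP102, averaged 40.1 and 49.4 TPM in Opn4KO pools, against 36.7 and 46.8 TPM in Opn4WT pools.

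Shank proteins sit deeper in the density and bind Homer and the Dlg-associated proteins. Shank1 was the most abundant at 44.2, 40.2, 46.6, 43.7 and 46.9 TPM in Opn4KO pools 1 to 5, against 37.4, 45.3, 40.2 and 43.2 TPM in Opn4WT pools 1 to 4. Opn4WT pool 1 lay below the Opn4KO range and the others inside it or at its lower edge, and the log2 fold change in counts was 0.04 (95% interval -0.08 to 0.15). Shank2 and Shank3 had log2 fold changes of 0.04 and 0.11, and the lowest edgeR adjusted p of the 3 was 0.338. Shank1 made up 54.3% of the family's TPM in both genotypes.

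Homer proteins tie Shank to metabotropic receptors of the mGluR1 and mGluR5 type. Homer1 stood at 35.6, 36.7, 40.0, 38.6 and 39.2 CPM in Opn4KO pools 1 to 5, against 36.1, 33.7, 32.0 and 36.2 CPM in Opn4WT pools 1 to 4. Opn4WT pools 1 and 4 reached into the Opn4KO range, with a log2 fold change of 0.14 (SE 0.06, edgeR adjusted p = 0.240, the lowest adjusted p of the scaffolds). Homer3 was the most abundant, at 81.0, 86.5, 85.6, 89.3 and 78.9 TPM in Opn4KO pools 1 to 5, against 85.0, 82.9, 88.7 and 86.7 TPM in Opn4WT pools 1 to 4. Its Opn4WT pools all lay inside the Opn4KO range, with a log2 fold change in counts of 0.04 (95% interval -0.05 to 0.12). Homer2 averaged 10.1 ± 1.79 TPM in Opn4KO pools and 11.1 ± 0.835 TPM in Opn4WT pools, with a log2 fold change in counts of -0.07. Homer3 shares 25.4% of its exon bases with Ddx49 on the opposite strand and held 74.0% and 74.2% of the family's TPM in Opn4KO and Opn4WT pools.

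The auxiliary proteins help AMPA receptors reach the surface and slow their closing. Cnih2 encodes cornichon-2, the more abundant of the pair, at 78.1, 90.6, 95.0, 95.9 and 100.2 TPM in Opn4KO pools 1 to 5, against 100.2, 94.6, 117 and 93.9 TPM in Opn4WT pools 1 to 4. In counts Cnih2 was at 51.2, 59.6, 62.2, 62.6 and 65.0 CPM in Opn4KO pools 1 to 5, against 65.7, 62.7, 74.8 and 62.2 CPM in Opn4WT pools 1 to 4. The groups overlapped, and the log2 fold change of -0.14, the most negative of the 34, was not called (SE 0.07, 95% interval -0.30 to 0.02, edgeR adjusted p = 0.363). Cacng2, which encodes stargazin, averaged 17.3 ± 1.37 TPM in Opn4KO pools and 16.4 ± 1.01 TPM in Opn4WT pools, with a log2 fold change in counts of 0.07.

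**Figure D5:**
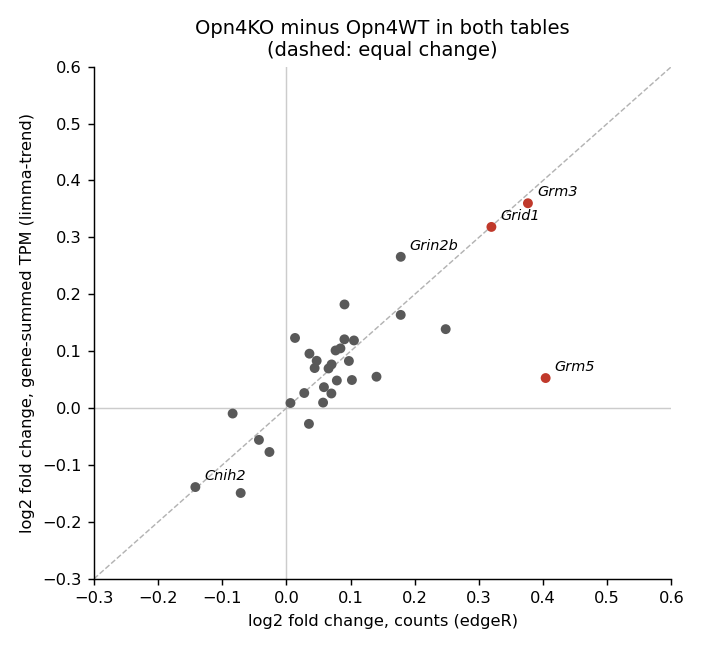
Log2 difference of the 32 members tested in gene-summed TPM (limma) against the log2 fold change in counts (edgeR), Opn4KO minus Opn4WT in both. Grin2a and Grin2c were not tested in TPM and are not shown. Grid1 and Grm3 have similar values in both, 0.32 and 0.32, and 0.38 in counts and 0.36 in TPM, while Grm5 is at 0.40 in counts and 0.05 in TPM.

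The abundance table lists several rows to a gene, without transcript identifiers. The 34 genes held 236 rows, of which 129 passed the filter on low values, and none of the 129 was called, where 0.176% of all 48763 rows tested were (limma, Benjamini-Hochberg over all rows). An unadjusted p under 0.05 was reached by 6 of the rows, with 9.21% of all rows at that level. The rows were the most abundant row of Dlg1 (0.48 on the log2(TPM + 0.5) scale, adjusted p = 0.245), that of Dlg4 (0.17, adjusted p = 0.327), a minor row each of Dlg2 (0.43) and Dlg4 (0.55), and the main rows of Grm3 (0.36) and Grid1 (0.26). All 6 differences were positive.

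Other genes of glutamate signalling, a list of 52 with the remaining receptors, auxiliary proteins, adhesion proteins, transporters and enzymes, shows what else of the pathway differed. Of the 52 tested, 7 were called higher in Opn4KO pools and none lower (edgeR, adjusted p under 0.05, against 1.34% and 2.25% of all genes), with a median log2 fold change of 0.08. An unadjusted p under 0.05 was reached by 20 of the 52 (16.5% of all genes). DESeq2 called 1 of the 52 lower, the adhesion protein gene Lrrtm1, at 26.1, 28.6, 33.3, 35.3 and 36.3 CPM in Opn4KO pools 1 to 5, against 39.8, 38.3, 39.4 and 37.6 CPM in Opn4WT pools 1 to 4 (log2 fold change -0.28, DESeq2 adjusted p = 0.0265, edgeR adjusted p = 0.112). Nsf, the ATPase that recycles fusion complexes and binds AMPA receptors, averaged 189 ± 3.52 CPM in Opn4KO pools and 166 ± 5.35 CPM in Opn4WT pools (SD), with a log2 fold change of 0.19 (SE 0.04, edgeR adjusted p = 0.0135). Nrxn3, a presynaptic neurexin, averaged 132 ± 4.50 CPM in Opn4KO pools and 107 ± 10.7 CPM in Opn4WT pools, with a log2 fold change of 0.30 (SE 0.06, edgeR adjusted p = 0.0138). Gsg1l, an auxiliary protein of AMPA receptors, averaged 18.1 ± 1.2 CPM in Opn4KO pools and 14.8 ± 0.58 CPM in Opn4WT pools, with a log2 fold change of 0.29 (SE 0.07, edgeR adjusted p = 0.0338). The call on Gsg1l was lost in 6 of the 9 fits that left out 1 pool, that on Nsf in 1, without Opn4WT pool 2, and that on Nrxn3 in none.

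The other 4 were the receptor genes Grm6 and Grik1 and the vesicular transporters Slc17a7 and Slc17a6, which load glutamate into vesicles. Grik1, the kainate subunit of OFF bipolar cells, stood at 14.4, 15.5, 8.23, 8.59 and 9.94 CPM in Opn4KO pools 1 to 5, against 6.27, 6.77, 5.80 and 5.33 CPM in Opn4WT pools 1 to 4. The groups did not overlap, and Opn4KO pools 1 and 2 were above the other 3 (log2 fold change 0.91, SE 0.18, edgeR adjusted p = 0.0141). Grm6, the mGluR6 receptor of ON bipolar cells, stood at 1.87, 2.50, 0.277, 0.577 and 0.246 CPM in Opn4KO pools 1 to 5, against 0, 0.0273, 0.0723 and 0 CPM in Opn4WT pools 1 to 4. The highest values were again in Opn4KO pools 1 and 2 (edgeR adjusted p = 0.00787, with no adjusted p from DESeq2). Grm6 passed the filter on low counts through the Opn4KO pools alone, so its call and its lack of overlap rest on that group. With a filter of mean CPM of at least 1, Grm6 was not tested, and 6 of 51 genes were called higher. Grik1 and Grm6 are also among the 12 bipolar markers, and Slc17a6 is also among the 11 ganglion cell markers. Slc17a7 averaged 140.4 ± 23.0 CPM in Opn4KO pools and 101 ± 2.85 CPM in Opn4WT pools (log2 fold change 0.48, edgeR adjusted p = 0.0143), and Slc17a6 averaged 72.5 ± 4.64 CPM in Opn4KO pools and 63.3 ± 1.12 CPM in Opn4WT pools (log2 fold change 0.20, edgeR adjusted p = 0.0464), a call lost in 7 of the 9 fits that left out 1 pool. The call on Grik1 was lost in 1 of those fits, without Opn4WT pool 4 (edgeR adjusted p = 0.0571), that on Slc17a7 in 1, without Opn4WT pool 1 (edgeR adjusted p = 0.0563), and that on Grm6 in none. Rod markers summed to 3903 and 3827 CPM in Opn4KO pools 1 and 2 and to 2782 to 3143 CPM in the other 3. Lens markers were also highest in Opn4KO pools 1 and 2, at 14.6 and 12.8 CPM. They summed to 6.10 to 7.56 CPM in the other 3 Opn4KO pools and to 5.61 to 6.29 CPM in Opn4WT pools. Without Opn4KO pools 1 and 2, 4 of the 52 were called higher. The part of rod and bipolar cell number and of lens tissue in these values was not tested.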

How the data were processed

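Poly-A RNA of 9 pools of neural retina was read from 3 deposited tables. The authors' count table holds raw counts for 53280 genes, and the program that counted them, its handling of shared reads and its strand setting are not given in the sources used here. The TPM table holds 118489 rows of transcript abundance signal, which the authors made with kallisto 0.46.1 after Trimmomatic 0.39, per the submitters' processing notes. Its columns sum to 953963 to 1083977, so the values were taken as deposited. The authors' deposited table of sleuth 0.30.8 gives p-values and q-values, effect sizes on a natural log scale and other columns such as standard errors. Its sign was positive for genes higher in Opn4WT, so effects were divided by the natural log of 2 and turned to Opn4KO minus Opn4WT. The build named in those notes is GRCm38.

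Counts were tested with edgeR 4.0.16 (filterByExpr, TMM, quasi-likelihood F test, two-sided) under R 4.3.3, and adjusted by Benjamini-Hochberg over all 21150 genes tested, with a threshold of 0.05. Intervals of 95% use the fit's standard error and degrees of freedom. TPM were summed per symbol, and log2(TPM + 0.5) of genes or rows with at least 1 TPM in at least 4 pools was tested with limma 3.58.1. Alternatives were DESeq2 1.42.0, other size factors and filters, a robust fit, other pseudocounts, leaving out pools, and the sample number as a block. The fits were checked on simulated counts and TPM. Nothing says that the pools of a genotype came from different litters. The p-values set the genotype difference against the spread between pools, and whether that spread covers the spread between litters is not known. Coordinates and exon overlaps come from GENCODE M21, in which all 34 genes were found by symbol, and near copies from BLAST 2.17.0.

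The 34 genes and all gene lists were chosen with earlier results of these data known. Values in every pool are given for the called member and for the most abundant member of each family. Grm3, Grm5, Grm2 and Homer1 were added after their values were seen, as the other members with an unadjusted p under 0.05, and so were Cnih2 in counts and Lrrtm1.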

Additional observations from a re-analysis of the deposited data

Results flagged for a closer look

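A single pool stood apart from the others of its genotype for 2 of the 34 genes. Gria2 in Opn4KO pool 1 was at 153 CPM, while the other 4 Opn4KO pools were between 137 and 141 CPM. The gap to the nearest pool was 0.742 of the group's range, above Dixon's critical value for 5 pools. Grin2d in Opn4WT pool 3 was at 17.2 CPM, while the other 3 Opn4WT pools were between 14.97 and 15.15 CPM, and the gap was 0.92 of the range, above the critical value for 4 pools. The check was made on 84 groups of pools, and chance marks about 1 in 20 groups.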

How the results depend on the processing

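Of the 34 genes 28 kept their direction under every alternative run, and none was called lower under any. The median log2 fold change of the members stayed between 0.05 and 0.09. With DESeq2, 689 genes were higher and 802 lower in Opn4KO pools, 3 members were higher and 1 of the other glutamate genes was lower. With gene-summed TPM, 95 genes were higher and 235 lower, 0 members and 0 other glutamate genes were called higher, Grid1 was at 0.32 (adjusted p = 0.155) and Homer3 reversed to -0.0278. Grin2a and Grin2c gave no value there because too few pools reached 1 TPM. With no filter on low counts, 152 genes and 0 members were higher, Grid1 was at 0.31 (adjusted p = 0.0712) and Grin3a at -0.0028. Without Opn4KO pools 1 and 2, 134 genes, 0 members and 4 other glutamate genes were higher, Grid1 was at 0.35 (adjusted p = 0.079), Grik2 at -0.0839, Grm7 at -0.00555, Dlg1 at -0.0755, and the Gria2 share differed by 0.416 percentage points. Leaving out 1 pool at a time, genes higher ranged from 153 to 347 and genes lower from 359 to 512, members higher from 0 to 1, other glutamate genes higher from 4 to 6 and lower from 0 to 1, and Grid1 from 0.26 to 0.36. Over the same fits Gria2 ranged from -0.0204 to 0.0946, Grik2 from -0.0308 to 0.0643, Dlg1 from -0.0271 to 0.0543 and Grin3a from -0.0945 to 0.0901. Transcript rows higher ranged from 7 to 40 (26 with all pools) and rows lower from 1 to 63 (60 with all pools). The difference in share ranged from -0.832 to 1.27 percentage points for Gria2, from -1.13 to 0.925 for Dlg4 and from 0.987 to 4.76 for Grin2b. The cause of these changes was not tested.

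Samples with the same number did not deviate together (r = 0.0205, 0.0316, 0.0999 and -0.0447 for numbers 1 to 4 over 15745 genes), so the number was not taken as a pairing. With the replicate block, which leaves out Opn4KO pool 5, 0 members were called, Grid1 was at 0.28 (adjusted p = 0.0865), Grin3a at -0.0060, and 2 transcript rows were higher and 0 lower. The widest standard errors of the 34 genes, 0.19 for Grin2c, 0.17 for Grin2a and 0.16 for Grin3b, belonged to the members with the lowest counts, which went down to 103, 290.0 and 105 in a pool, so at this depth a 1.5-fold change of these genes lies within their intervals.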
